A study of Mus musculus with 4 samples.

Results

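*Fam46a*, *Map6*, *Ntrk3*, *Phlda1* and *Atn1* are 5 protein-coding genes whose transcripts were less abundant in CD4 T cells that carried a *Tox* retrovirus than in cells that carried the empty vector. They were chosen by these same levels, since each *Tox* library had a lower value than each empty vector library and the means differed by about 2-fold or more, so their differences between the groups are a description and are given without a test. They are 5 of 24369 genes listed in the series, and all 5 had enough counts to be among the 14143 genes tested. The same arrangement with a difference of at least 2-fold was found in 245 of all genes tested (1.73%) and in 199 of 13111 protein-coding ones (1.52%), and from the lowest log2 fold change of the latter *Phlda1* ranked 20, *Atn1* 26, *Ntrk3* 52, *Map6* 110 and *Fam46a* 119. They are therefore a selection from a longer list and not its extremes.

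RNA was sequenced from 4 libraries of splenic CD4 T cells of WT C57BL/6 mice, 2 per group, and each group represented 2 mice. The age of these mice is not given in the sources used here, nor whether the groups shared mice. All cells were naïve CD4 T cells activated on anti-CD3 without polarizing cytokines, with anti-CD28 in solution. The methods add human IL-2, where the labels name human anti-CD28 again. They were transduced on day 2, restimulated through the T cell receptor on day 5 for 5 h and sorted as GFP+ CD4 cells per the methods. The control retrovirus (EV RV) was MSCV-IRES-eGFP and the *Tox* retrovirus (Tox RV) was MSCV-Tox-IRES-eGFP, so that both groups had been activated, transduced and sorted alike, and Tox came from a viral promoter in cells with their own *Tox* gene intact.

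These genes do different jobs. *Fam46a* (current symbol *Tent5a*) encodes a non-canonical poly(A) polymerase, an enzyme that lengthens the tails of messenger RNAs outside the nuclear polyadenylation machinery. *Map6* encodes a protein that binds and stabilizes microtubules and is best known in neurons. *Ntrk3* encodes TrkC, the receptor tyrosine kinase for the neurotrophin NT-3, which signals through adaptor proteins to the ERK, PI3K and phospholipase C gamma pathways. *Phlda1* encodes TDAG51, a protein with a pleckstrin homology-like domain that was first described as a gene induced by T cell receptor signals. *Atn1* encodes atrophin-1, a nuclear corepressor whose polyglutamine tract is expanded in a human neurodegenerative disease.

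The libraries held between 46989997 and 74548723 expected counts. *Tox*, the gene carried by the retrovirus, was at 7.22 and 3.37 TPM (transcript abundance scaled to the same total in each library and corrected for length) in EV RV and at 69.1 and 56.9 TPM in Tox RV libraries, on the side of the labels in each. EV RV replicate 1 stood apart from the others. It lay at -53.8 on the first principal component (58.0% of the variance) against 5.70 to 25.8 for the other 3 libraries, and its 45S pre-ribosomal RNA took 24.7% of the counts against 7.14% to 11.97%. In the tests across all genes with edgeR's quasi-likelihood test, 0 genes passed an adjusted p-value of 0.05, while 360 were lower (2.55%) and 152 higher (1.07%) at an unadjusted p-value below 0.05. *Tox* itself did not pass, at a log2 fold change of 3.675 (edgeR, adjusted p = 0.490). A gene that did not pass was therefore not shown to be unchanged. DESeq2 called 11 genes lower and 11 higher (0.0725% each). Markers of the CD4 T cell were abundant, with a sum over 7 genes of 2479 and 1673 CPM (counts relative to library size, with TMM scaling and no correction for length) in EV RV and 2182 and 1961 CPM in Tox RV libraries. In Tox RV 3 of them were higher and 4 lower. Their log2 fold changes ran from -0.84 (*Cd3e*, at 219 and 71.9 CPM in EV RV) to 0.41 (*Cd3g*).

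Of the 5 genes, *Fam46a* was the most abundant. Its level was 45.7 TPM in the first and 37.1 TPM in the second EV RV library, against 18.6 and 15.9 TPM with Tox RV. The groups did not overlap, with Tox RV lower, as in 17.4% of all genes tested. On the CPM scale the mean was 134.5 ± 15.0 (SD, n = 2) in EV RV and 59.4 ± 6.47 (SD, n = 2) in Tox RV, which gave a log2 fold change of -1.18 ± 0.19 (SE). The log2 fold change stayed between -1.30 and -1.07 when any 1 library was left out. *Fam46a* lies on chromosome 9 of GRCm38 (mm10) from 85320439 to 85327348 on the minus strand, and its principal transcript has 3 exons.

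Among the paralogs of *Fam46a*, only *Fam46c* (current symbol *Tent5c*) was expressed at a level that could be tested. It was at 24.6 and 29.4 TPM in EV RV and at 28.6 and 31.03 TPM in Tox RV libraries, and its log2 fold change of 0.22 ± 0.19 (SE) did not pass the test (edgeR, adjusted p = 0.897). *Fam46a* was thus 1.86 and 1.26 times as abundant as *Fam46c* in the EV RV libraries and 0.65 and 0.51 times as abundant in the Tox RV libraries, on the TPM scale, which is per length. *Fam46b* had at most 4 counts and *Fam46d* at most 5 counts in any library. To set the start regions of both expressed paralogs side by side, the 250 bases before their RefSeq start (GRCm38.p6, minus strand, chr9:85327151-85327400 for *Fam46a* and chr3:100489193-100489442 for *Fam46c*) are shown 5′ to 3′, with capitals for the TATA box (TATAAA) and the CCAAT box (CCAAT).
Fam46a: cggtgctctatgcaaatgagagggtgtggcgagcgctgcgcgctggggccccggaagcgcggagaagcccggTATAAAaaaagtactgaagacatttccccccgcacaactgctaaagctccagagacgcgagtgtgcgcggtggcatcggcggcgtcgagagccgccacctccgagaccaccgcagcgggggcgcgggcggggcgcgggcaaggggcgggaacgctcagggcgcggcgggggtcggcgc
Fam46c: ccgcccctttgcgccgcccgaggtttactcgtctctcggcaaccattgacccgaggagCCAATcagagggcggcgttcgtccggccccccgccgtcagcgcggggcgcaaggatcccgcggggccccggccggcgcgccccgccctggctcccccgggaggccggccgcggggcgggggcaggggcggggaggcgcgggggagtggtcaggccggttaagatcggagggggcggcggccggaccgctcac
The *Fam46a* window held 1 TATA box, as did 13.0% of 27025 promoters of this length, and the *Fam46c* window held 1 CCAAT box, as did 34.5%. They lay 178 and 192 bases before the RefSeq start and are matches of letters only. Neither window held the AP-1 letters TGANTCA (6.87% of promoters) or the CRE letters TGACGTCA (1.62%). All motifs were searched on both strands. The windows were set by the RefSeq start. In the GENCODE annotation, which starts *Fam46a* at 85327348 and *Fam46c* at 100489324 on the minus strand, part of each window lies inside the gene. By that annotation the TATA box of *Fam46a* is inside the gene, and the CCAAT box of *Fam46c* is before its start. Of the 5 genes, *Fam46a* alone was matched in the promoter table.

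Around *Fam46a*, the genes of enzymes that extend RNA ends or shorten poly(A) tails lay on both sides of 0. Of 8 other genes tested in the list of non-canonical poly(A) polymerases and related enzymes, 6 were higher and 2 lower. Their median log2 fold change was 0.070 against 0.0036 over all genes tested. *Zcchc11*, which adds uridines to RNA ends, had the lowest value of these, -0.65 ± 0.24 (SE; edgeR, adjusted p = 0.897), from 115.5 and 75.3 CPM in EV RV to 58.4 and 63.3 CPM in Tox RV. Of 14 deadenylases and their recruiters, 4 were higher and 10 lower (median -0.22, and 0.020 without EV RV replicate 1), and *Cnot6*, a catalytic deadenylase subunit, was at -0.51 ± 0.18 (SE; edgeR, adjusted p = 0.897). In both lists 0 genes passed an adjusted p-value of 0.05 by edgeR or DESeq2, and 1 gene of each was below 0.05 before adjustment. Without EV RV replicate 1 the value of *Zcchc11* was -0.31 and that of *Cnot6* was -0.36.

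*Map6* was at 10.4 TPM in the first and 9.23 TPM in the second EV RV library, against 4.04 and 4.50 TPM with Tox RV. Both pairs of replicates lay close together. That Tox RV lay below EV RV without overlap is how *Map6* was chosen, and 17.4% of all genes tested had this arrangement. The mean was 16.3 ± 0.644 CPM (SD, n = 2) in EV RV and 7.06 ± 0.323 CPM (SD, n = 2) in Tox RV, which gave a log2 fold change of -1.21 ± 0.19 (SE). It ranged from -1.25 to -1.17 when any 1 library was left out. *Map6* lies on chromosome 7 from 99267447 to 99337137 on the plus strand, with 4 exons in its principal transcript.

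The mean transcript length of *Map6* was shorter in Tox RV. The choice of *Map6* was not made on this length, but the length enters TPM and is estimated from the same reads. The files list 3 transcripts for *Map6*, and RSEM reports a mean effective length weighted by their abundance. That length was 2698 and 2729 bases in the EV RV libraries and 2601 and 2496 bases in the Tox RV libraries. Each Tox RV value was shorter than each EV RV value, as in 16.7% of 3978 tested genes with several transcripts. The mean was 6.09% shorter in Tox RV, and 1.89% of those genes had a more negative change. Which transcript accounts for the shift cannot be read from a mean length. *Fam46a*, with 2 transcripts, had effective lengths of 5304 to 5307 bases in all libraries. *Ntrk3*, also with 2, was at 3548 and 3620 bases in EV RV and 3562 and 3587 bases in Tox RV, so the Tox RV values lay inside the EV RV range. *Phlda1* and *Atn1* are listed with 1 transcript each, of 1804 and 4277 effective bases in all libraries. The lengths come from RSEM's estimates and were not tested.

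**Figure D1:**
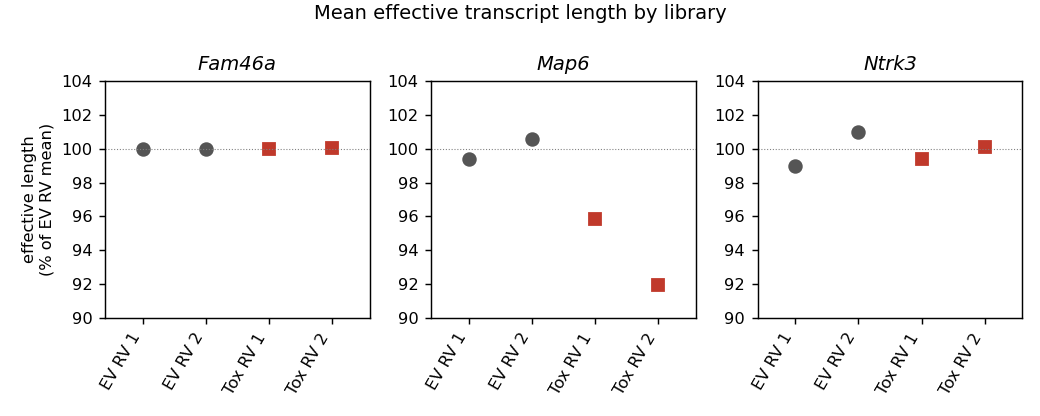
Mean effective transcript length per library for the 3 genes with several transcripts, as a percent of the EV RV mean (vertical axis, which does not start at 0; grey circles EV RV, red squares Tox RV). *Map6* was 6.09% shorter on average in Tox RV, while *Fam46a* and *Ntrk3* stayed near the EV RV mean.

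Other microtubule genes also lay on both sides of 0. The *Map6* paralog *Map6d1*, at 1.04 and 0.71 TPM in EV RV and 1.14 and 1.11 TPM in Tox RV, was higher in both Tox RV libraries (log2 fold change 0.46 ± 0.32, SE; edgeR, adjusted p = 0.897). Of 19 other microtubule-associated genes tested, 10 were higher and 9 lower, with a median of 0.019. *Map4*, the abundant microtubule-associated protein of non-neuronal cells, was at -0.66 ± 0.24 (SE), and *Map2*, a neuronal one at 0.13 to 0.48 TPM, at 1.28 ± 0.46 (SE), each with an adjusted p-value of 0.897. Without EV RV replicate 1 *Map4* was at -0.34. Of 14 tubulin genes 9 were higher and 5 lower (median 0.10), and *Tubb6* was at 0.60 ± 0.18 (SE; edgeR, adjusted p = 0.897). By edgeR and by DESeq2, 0 genes of either list passed an adjusted p-value of 0.05, with 3 genes in all below 0.05 before adjustment in edgeR. With EV RV replicate 1 left out, the medians were -0.034 (microtubule-associated genes), -0.042 (tubulins) and -0.029 (poly(A) polymerases and related enzymes).

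*Ntrk3* had the tightest replicates of the 5 in the Tox RV group. Its level was 8.33 TPM in the first and 7.17 TPM in the second EV RV library, against 2.53 and 2.62 TPM with Tox RV. Both Tox RV values lay below the lower EV RV value, which is how *Ntrk3* was chosen. The mean was 17.0 ± 0.947 CPM (SD, n = 2) in EV RV and 5.99 ± 0.174 CPM (SD, n = 2) in Tox RV, which gave a log2 fold change of -1.51 ± 0.19 (SE), and -1.56 to -1.46 when any 1 library was left out. *Ntrk3* lies on chromosome 7 from 78175959 to 78738012 on the minus strand, with 17 exons in its principal transcript.

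The relatives and ligand of *Ntrk3* were near the limit of detection. The related receptor *Ntrk2* had 1 to 12 counts per library, and *Ngfr*, the shared low-affinity neurotrophin receptor, had 2 to 7. Its ligand gene *Ntf3* had 1 and 2 counts in the EV RV libraries and 0 in both Tox RV libraries, and *Bdnf*, the ligand of *Ntrk2*, had at most 4. A change in these genes was not detectable at this depth. *Ptprs*, which encodes a receptor phosphatase that binds TrkC, was at 54.0 and 46.5 TPM in EV RV and 40.6 and 43.2 TPM in Tox RV (log2 fold change -0.18 ± 0.17, SE; edgeR, adjusted p = 0.897). Of 11 Trk adaptor genes tested, 3 were higher and 8 lower, with a median of -0.16 and 0 genes below 0.05 before or after adjustment in edgeR. *Shc1*, *Plcg1* and *Grb2*, which couple the receptor to its pathways, were at 0.0015, -0.049 and -0.24, and the median without EV RV replicate 1 was 0.015. The lowest value of the list, -1.48 ± 1.21 (SE) for *Shc3*, came from 2 to 40 counts per library, and its groups overlapped.

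Because *Ntrk3* and *Map6* are best known in neurons, markers of other cell types were read beside them. The summed level of 7 neuronal markers was 1.45 and 2.59 CPM in EV RV and 2.09 and 1.77 CPM in Tox RV libraries, most of it from *Syn1* (43 to 110 counts per library) and *Syt1* (7 to 70 counts), while *Rbfox3* had at most 6 counts and *Snap25* at most 3. *Ntrk3* alone was at 17.7 and 16.3 CPM in EV RV. The sum of 5 fibroblast markers stayed below 1 CPM in every library, from 0.095 to 0.40. That of 6 myeloid markers was 1.59 and 2.18 CPM in EV RV and 1.93 and 1.56 CPM in Tox RV. Of the B cell markers *Ms4a1* had 0 counts in each library, and the sum of 5 was between 2.06 and 2.35 CPM. That of *Cd8a* and *Cd8b1* was 4.65 and 3.88 CPM in EV RV and 4.77 and 4.26 CPM in Tox RV. In bulk RNA, fewer cells that express a gene and less RNA of it per cell cannot be told apart.

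*Phlda1* was at 42.9 TPM in the first and 13.3 TPM in the second EV RV library, against 7.61 and 6.45 TPM with Tox RV. The groups did not overlap, but the EV RV libraries themselves differed 3.07-fold in CPM. The mean was 30.7 ± 22.1 CPM (SD, n = 2) in EV RV and 8.24 ± 0.972 CPM (SD, n = 2) in Tox RV, which gave a log2 fold change of -1.89 ± 0.52 (SE). With EV RV replicate 1 left out the value was -0.88, a 1.84-fold difference that falls short of 2-fold, and with EV RV replicate 2 left out -2.48. *Phlda1* lies on chromosome 10 from 111506286 to 111508645 on the plus strand and has 2 exons. Its coding sequence holds a run of 8 glutamine codons (CAG or CAA), a length that 0.68% of 13092 tested coding genes reach.

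The relatives of *Phlda1* and the genes of its signalling context were divided. *Phlda3*, its paralog, was at 51.7 and 40.9 TPM in EV RV and 38.6 and 40.1 TPM in Tox RV (log2 fold change -0.15 ± 0.18, SE; edgeR, adjusted p = 0.905), and *Phlda2* had at most 2 counts. *Phlda1* is often read as a transcript induced by ERK. Of 8 other ERK output genes tested, 6 were higher and 2 lower, with a median of 0.28 (0.11 without EV RV replicate 1 and -0.012 without Tox RV replicate 1), and 0 passed 0.05 before or after adjustment in edgeR or after adjustment in DESeq2. *Dusp6* was at 0.35 ± 0.23 (SE) and *Dusp4* at -0.24 ± 0.16 (SE), each with an adjusted p-value of 0.897 in edgeR. Of 15 immediate early genes of T cell receptor signalling, 6 were higher and 9 lower, with a median of -0.11 that was 0.16 without EV RV replicate 1. *Nr4a2* was at 0.64 ± 0.19 (SE), *Jun* at -0.92 ± 0.24 (SE) and *Myc* at -0.57 ± 0.23 (SE), each with an adjusted p-value of 0.897 and an unadjusted one below 0.05 in edgeR. *Jun* was at 155 and 101 CPM in EV RV and 68.1 and 66.9 CPM in Tox RV. With EV RV replicate 1 left out *Jun* was at -0.59 and *Myc* at -0.33. Of 10 genes of activation-induced cell death, a process in which TDAG51 has been studied, 5 were higher and 5 lower (median -0.10). *Bcl2l11*, which encodes the death-promoting protein BIM, was at 322 and 219 CPM in EV RV and 175 and 145 CPM in Tox RV (log2 fold change -0.76 ± 0.24, SE; edgeR, adjusted p = 0.897). With EV RV replicate 1 left out it was at -0.46. *Fasl*, the ligand that triggers such death, was at -0.44, and *Casp8*, the caspase downstream of it, at 0.00073.

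*Atn1* followed the same pattern as *Phlda1*. Its level was 14.5 TPM in the first and 4.50 TPM in the second EV RV library, against 2.46 and 2.67 TPM with Tox RV. The Tox RV libraries agreed closely and lay below both EV RV libraries, of which the first was 3.06 times the second in CPM. The mean was 24.6 ± 17.7 CPM (SD, n = 2) in EV RV and 7.13 ± 0.408 CPM (SD, n = 2) in Tox RV, which gave a log2 fold change of -1.78 ± 0.51 (SE). With EV RV replicate 1 left out the value was -0.77, a 1.71-fold difference, and with EV RV replicate 2 left out -2.37. *Atn1* lies on chromosome 6 from 124742544 to 124756524 on the minus strand, with 10 exons in its principal transcript. The longest run of glutamine codons in this mouse transcript is 3.

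*Rere*, the paralog of *Atn1* and also a nuclear corepressor, had the lowest value of the 9 other genes tested in the list of atrophins and their partners. It was at 10.4 and 3.33 TPM in EV RV and 2.43 and 2.71 TPM in Tox RV, and its log2 fold change was -1.32 ± 0.49 (SE; edgeR, adjusted p = 0.897). The groups did not overlap, and the ratio of *Rere* to *Atn1* on the TPM scale was 0.72, 0.74, 0.99 and 1.01 in the 4 libraries in that order. The log2 fold change of *Rere* was -0.33 when EV RV replicate 1 was left out and -1.90 when EV RV replicate 2 was. The other 8 genes had values between -0.31 and 0.21, among them the histone deacetylases *Hdac1* (-0.31) and *Hdac2* (0.21) and the ubiquitin ligase *Itch* (0.17), and the median of the 9 was -0.16. That median had no stable sign, at -0.048 without EV RV replicate 1, 0.020 without EV RV replicate 2 and 0.033 without Tox RV replicate 2. Since the profile of *Rere* was like that of *Atn1*, the 250 bases before its RefSeq start (GRCm38.p6, plus strand, chr4:150281666-150281915) are shown 5′ to 3′, with nothing in capitals because none of the TATA, CCAAT, AP-1 and CRE letters searched above occurred. The NFAT core GGAAA, present at least 1 time in 55.6% of promoters, occurred 3 times, against 1 time in the *Fam46a* window and 0 in that of *Fam46c*. In the GENCODE annotation *Rere* begins at 150281646, so this whole window lies inside the gene.
Rere: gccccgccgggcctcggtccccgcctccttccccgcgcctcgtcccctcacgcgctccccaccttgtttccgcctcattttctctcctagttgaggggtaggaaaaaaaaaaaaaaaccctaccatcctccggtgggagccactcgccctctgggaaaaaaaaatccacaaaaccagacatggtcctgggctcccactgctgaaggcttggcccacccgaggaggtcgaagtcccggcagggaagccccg

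*Atn1* also belongs to the genes whose expanded CAG repeats cause disease in humans. Of 7 others tested, 2 were higher and 5 lower, with a median of -0.44. *Atxn1*, which encodes a transcriptional corepressor, was at 212 and 182 CPM in EV RV and 144 and 140 CPM in Tox RV. Its log2 fold change was -0.48 ± 0.17 (SE) and that of *Htt*, which encodes huntingtin, -0.44 ± 0.18 (SE), each with an adjusted p-value of 0.897 and an unadjusted one below 0.05 in edgeR's quasi-likelihood test. In DESeq2 0 of these genes passed an adjusted p-value of 0.05. Without EV RV replicate 1 the median of the 7 was 0.055, with *Atxn1* at -0.37 and *Htt* at -0.30.

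**Figure D2:**
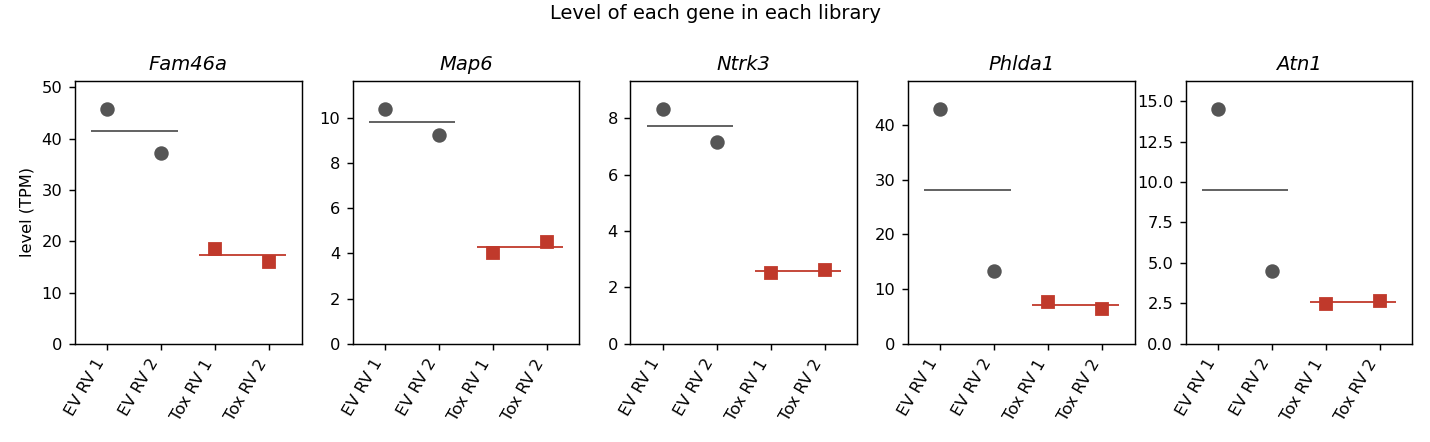
Level of each of the 5 genes in TPM (vertical axes from 0, a scale per gene) in the 4 libraries, with grey circles for EV RV, red squares for Tox RV and lines at the group means. *Fam46a*, *Map6* and *Ntrk3* had close EV RV replicates, whereas *Phlda1* and *Atn1* were about 3-fold higher in EV RV replicate 1 than in EV RV replicate 2.

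By their profiles the 5 genes fell into 2 sets. The EV RV replicates differed by 0.23 (*Fam46a*), 0.080 (*Map6*) and 0.11 (*Ntrk3*) on the log2 CPM scale, and by 1.62 (*Phlda1*) and 1.61 (*Atn1*). A difference as large as the latter in either direction was uncommon, since 96.9% of all genes tested had a smaller one. EV RV replicate 1 was also the higher one in immediate early genes, by 1.89 (*Egr3*), 1.56 (*Nr4a3*), 1.32 (*Egr1*) and 1.25 (*Nr4a1*). The reverse was seen in *Irf4* (-0.75), *Fosb* (-0.15), *Egr2* (-0.068) and *Junb* (-0.062). The remaining genes of that list had smaller positive values. EV RV replicate 1 was at least 3 times EV RV replicate 2 in 345 of 14143 genes (2.44%), and in 14 of the 245 genes with the arrangement and the 2-fold difference by which the 5 were chosen, which a high EV RV value favours. In the Tox RV group the 5 genes differed between replicates by 0.24 or less. The distance between 2 centred log2 CPM profiles over the 4 libraries was 0.28 between *Phlda1* and *Atn1*, each the second closest of all genes tested to the other. It was 0.25 between *Fam46a* and *Map6*, 0.30 between *Map6* and *Ntrk3* and 0.39 between *Fam46a* and *Ntrk3*, and from 1.06 to 1.21 between a gene of one set and a gene of the other.

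**Figure D3:**
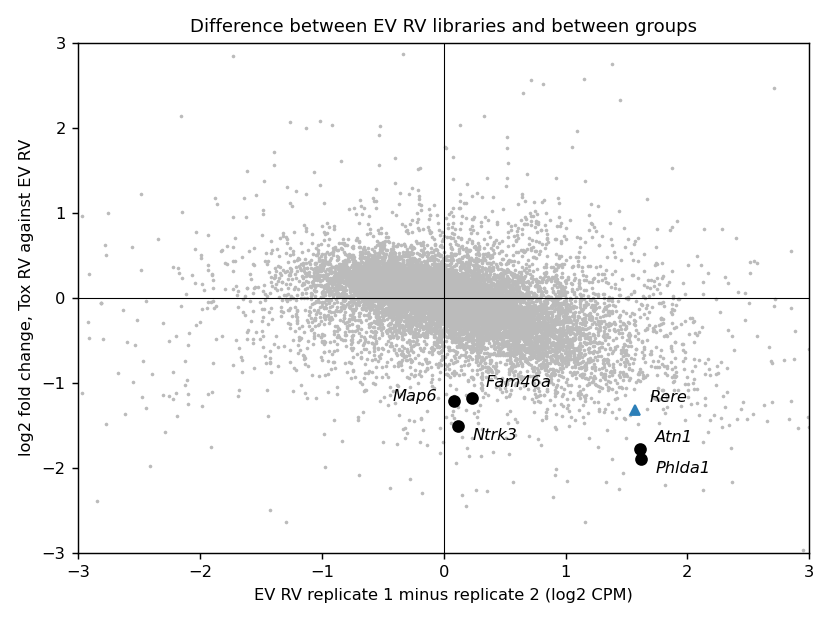
Difference between EV RV replicates 1 and 2 in log2 CPM (horizontal axis) against the log2 fold change between Tox RV and EV RV (vertical axis) for all genes tested (grey; 47 lie outside the axes), with the 5 genes in black and *Rere* as a blue triangle. *Phlda1*, *Atn1* and *Rere* lie to the right, with EV RV replicate 1 far above replicate 2, and *Fam46a*, *Map6* and *Ntrk3* lie near the middle.

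The closest genes to each member were mostly of low abundance, where a profile is less certain. For *Fam46a* they were *Tulp3* (5.85 to 7.32 CPM in EV RV and 2.85 to 3.02 CPM in Tox RV), *Ascl4* and *Hmgn5*, at distances of 0.12, 0.18 and 0.18. For *Map6* they were *Gm13315*, *B3galnt1* and *E430016F16Rik*, and for *Ntrk3* *Olfr60*, *Gm13315* and *B3galnt1*, at distances from 0.12 to 0.22 and all below 2 CPM. For *Phlda1* the other 2 were *4833422C13Rik* and *Pou3f1*. For *Atn1* the closest was *Gm6793* at 0.21 (82.2, 23.8, 12.4 and 15.3 CPM), and the third was *Atp6v0c-ps2*, a pseudogene whose reads may be shared with its parent gene.

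EV RV replicate 1, in which *Phlda1* and *Atn1* were high, also had the highest ribosomal RNA share, given above, and higher levels of GC-rich genes than EV RV replicate 2. The coding sequences of *Phlda1* (65.9% GC) and *Atn1* (62.2% GC) were in the highest decile of 13092 genes, and that of *Map6* (60.5%) was in the decile below it. The median log2 difference between EV RV replicates 1 and 2 was 0.13 in the highest decile and -0.26 in the lowest. *Fam46a* (53.2%) and *Ntrk3* (53.8%) were near the median of 53.0%. After the median log2 fold change of each GC decile was taken off, a step chosen after seeing the data, *Phlda1* was at -1.82 and *Atn1* at -1.71. That median was -0.074 in the highest decile, so the step could move these values only by that amount. It does not address the difference between the EV RV replicates, and the part of GC content in the result was not tested. The sum of 4 NK cell markers was 52.0 and 12.6 CPM in EV RV and 28.1 and 7.04 CPM in Tox RV, in replicate order, with 3 of the 4 tested and *Ncr1* at 0 counts in each library. The sum was higher in replicate 1 of both groups. In the same order of libraries, *Phlda1* was at 42.9, 13.3, 7.61 and 6.45 TPM and *Atn1* at 14.5, 4.50, 2.46 and 2.67 TPM. The part of NK cells in these values was not tested. The part of ribosomal RNA in the result was not tested.

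**Figure D4:**
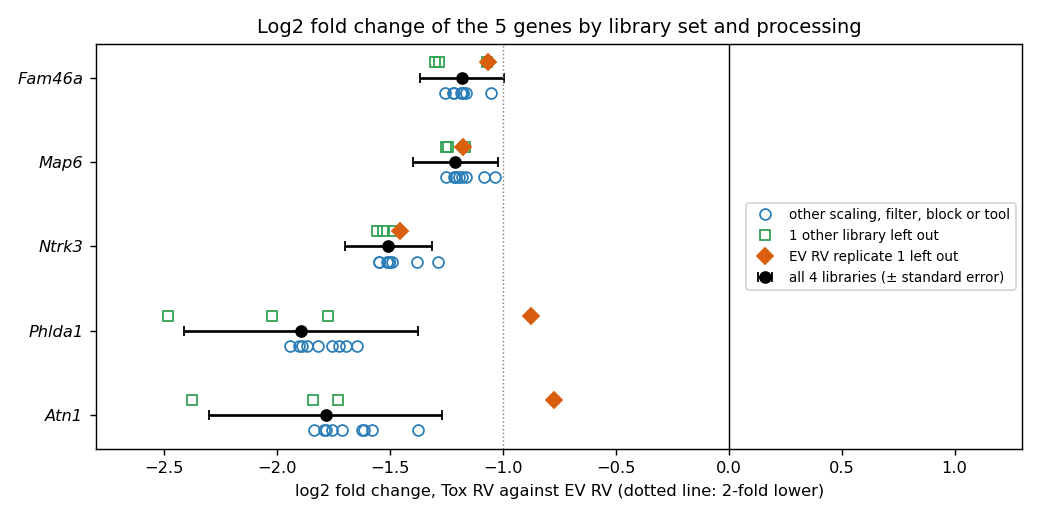
Log2 fold change of each gene between Tox RV and EV RV (horizontal axis) from all 4 libraries (black, ± standard error), under other scaling, filters, blocks or tools (blue circles), and with 1 library left out (green squares, or an orange diamond for EV RV replicate 1). The diamonds of *Phlda1* (-0.88) and *Atn1* (-0.77) lie on the near side of the dotted line at a 2-fold decrease, while those of *Fam46a*, *Map6* and *Ntrk3* lie beyond it.

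Ordered by TPM, which is per length, the EV RV means were 41.4 ± 6.10 for *Fam46a*, 28.1 ± 20.9 for *Phlda1*, 9.81 ± 0.820 for *Map6*, 9.50 ± 7.07 for *Atn1* and 7.75 ± 0.820 for *Ntrk3* (SD, n = 2 each). *Phlda1* and *Fam46a* did not differ beyond their spread, nor did *Atn1* from either of its neighbours. In Tox RV the means were 17.2 ± 1.87 for *Fam46a*, 7.03 ± 0.820 for *Phlda1*, 4.27 ± 0.325 for *Map6*, and 2.58 ± 0.0636 and 2.57 ± 0.149 for *Ntrk3* and *Atn1*, of which only the last pair overlapped.

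**Figure D5:**
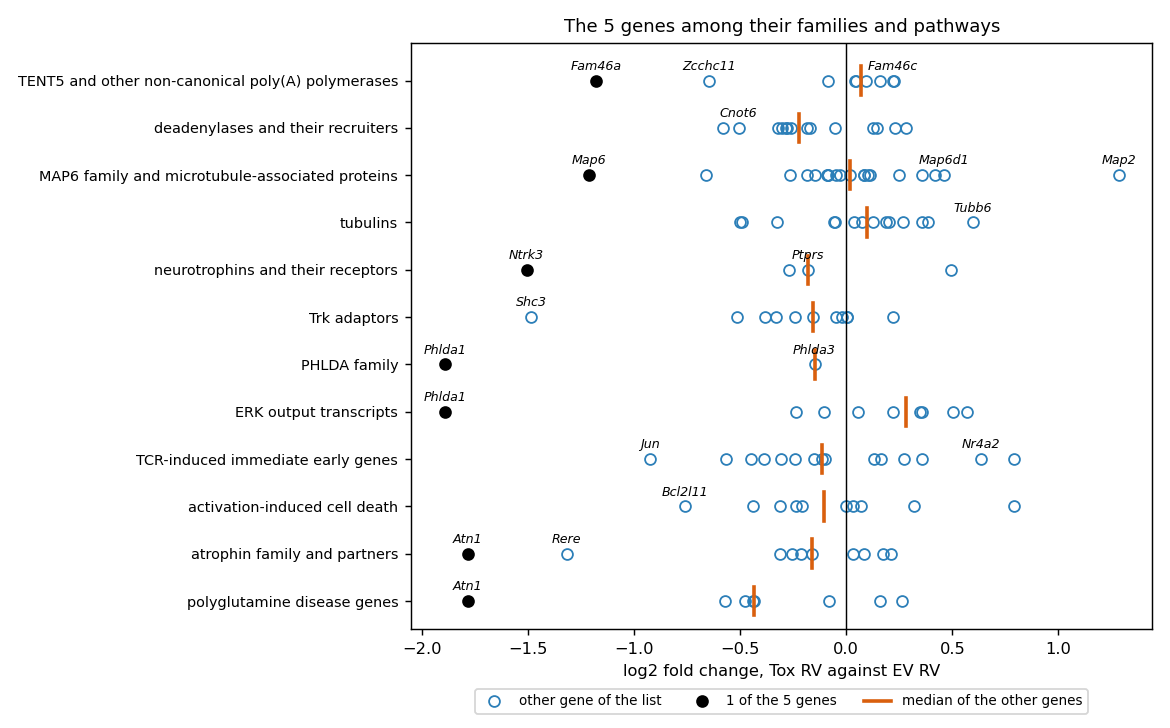
Log2 fold change between Tox RV and EV RV (horizontal axis) of the 5 genes (black) and of the other tested genes of their family and pathway lists (blue circles), with the median of the other genes as an orange bar and some genes named. The black points lie at the low end of their lists, which is how they were chosen, and most other genes lie between -1 and 1.

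Over all these lists together, without the 5 genes, 118 of 134 genes were tested. Tox RV lay below EV RV without overlap in 20 of them (16.9%, against 17.4% of all genes tested) and above in 15 (12.7%, against 18.6%). In edgeR's quasi-likelihood test 0 passed an adjusted p-value of 0.05, and 9 were lower (7.63%, against 2.55%) and 3 higher (2.54%, against 1.07%) before adjustment. DESeq2 also called 0.

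Of 6 nearest protein-coding neighbours in the genome with enough counts, 0 had Tox RV below EV RV without overlap (17.4% of all genes tested) and 3 had it above (18.6%), *Grcc10*, *Eno2* and *Krr1*. On either side of *Atn1*, *Grcc10* (1170 bases away) was at 0.25 and *Eno2* (3529 bases away), which encodes an enolase, at 0.95 ± 0.34 (SE; edgeR, adjusted p = 0.897), from 1.02 and 0.854 CPM in EV RV to 1.64 and 1.97 CPM in Tox RV. *Nap1l1* (8136 bases from *Phlda1*) was at -0.015, *Mrpl46* (37224 bases from *Ntrk3*) at -0.091 and *Ibtk* (360012 bases from *Fam46a*) at -0.060. The annotation places noncoding genes on the opposite strand of *Ntrk3* (*4921513I08Rik* and *Gm9885*) and of *Phlda1* (*Gm28592*), and other gene models on the same strand within *Map6* (*Gm45591*), *Ntrk3* (*Gm44607* and *Gm39038*) and across *Atn1* (*Gm45234*). The counts of these 4 genes could include reads of the overlapping transcripts where exons are shared. Those on the opposite strand matter because use of strand is not stated. *Gm45591*, the sole overlap of *Map6*, and *Gm39038* are annotated as intronic, and reads were aligned to transcripts.

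At the edge of the 2-fold limit, the genes just inside were *Srcin1* and *Samhd1*, each with a log2 fold change of -1.01. Those just outside were *Tmem176a* and *Hspa1a*, each at -0.998. Of the 5 genes, *Fam46a* was nearest to the limit.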

How the data were processed

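Gene expression was measured in 4 libraries, 2 per group, assigned from their labels. The authors aligned reads with bowtie to mm10 transcripts and deposited, for each gene, expected counts estimated by RSEM (not normalized), TPM, FPKM and transcript lengths. Tool versions and the use of strand are not given in the sources used here. A further deposited table, named as TPM, was not used. Rounded expected counts went into edgeR 4.0.16 under R 4.3.3 (filterByExpr with minimum count 10, TMM scaling, glmQLFit, glmQLFTest, no block) over all 14143 genes, with Benjamini-Hochberg adjustment. Where nothing shows separate cultures, p-values measure only the spread between these samples. DESeq2 1.42.0 and limma 3.58.1 on log2(TPM + 1) and log2(TPM + 0.1) were alternatives. The scripts were tested on simulated data.

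The 5 genes and all lists were chosen with earlier results of these data known. Some genes of these lists are not reported here. Named genes were the 5, their paralogs, list genes below an unadjusted p-value of 0.05 or among the most abundant, the 3 closest profiles (Euclidean distance, log2 CPM with prior count 2), neighbours and genes at the 2-fold limit. Others (*Ntf3*, *Bdnf*, *Ngfr*, *Shc3*, *Syn1*, *Syt1*, *Rbfox3*, *Snap25*, *Ms4a1*, *Ncr1*, *Cd8a*, *Cd8b1*, *Cd3e*, *Cd3g*, *Egr1*, *Egr2*, *Egr3*, *Nr4a1*, *Nr4a3*, *Irf4*, *Fosb*, *Junb*) were named after their values were seen. Gene places are from GENCODE M21 and promoters from RefSeq (GRCm38.p6).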

Additional observations from a re-analysis of the deposited data

How the results depend on the processing

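All 5 genes stayed lower in Tox RV under the 13 alternatives run for each. Scaling by library totals shifted the median of all genes to 0.12 and put *Map6* at -1.09 and *Ntrk3* at -1.38, and limma on log2(TPM + 1) put them at -1.04 and -1.29. With 1 library left out in turn (the lone library of its group is then assumed to vary like the others), *Fam46a* ranged from -1.30 to -1.07, *Map6* from -1.25 to -1.17, *Ntrk3* from -1.56 to -1.46, *Phlda1* from -2.48 to -0.88 and *Atn1* from -2.37 to -0.77, the nearest to 0 of the last 2 without EV RV replicate 1. The cause was not tested.

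The count of genes called (0 of 14143, 0 of them lower) was 22 (11 lower) with DESeq2, 22 (11 lower) with no low-count filter, and 16 (7 lower) with the replicate number as a block. The labels do not say that a number marks a mouse, and the differences between replicates 1 and 2 correlated at 0.302 across genes between the groups. The block changed no other call. Leaving out a library gave 1 to 600 calls (0 to 429 lower): 1 without EV RV replicate 1, 600 without EV RV replicate 2, 12 without Tox RV replicate 1 and 23 without Tox RV replicate 2. List genes called were 0 to 5, the 5 (*Rere*, *Jun*, *Bcl2l11*, *Map4* and *Zcchc11*) without EV RV replicate 2. With 2 libraries per group no library could be tested as an outlier. Genes at a few counts, such as *Ntf3*, were limited by depth.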
